A study of Mus musculus with 64 samples.

Results

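The nuclear genes of oxidative phosphorylation (OXPHOS) were followed in the brain of Cyfip2 +/R87C mice from the first to the 28th postnatal week. The set was taken by name: it held every gene of the deposited table whose Ensembl identifier belonged to a protein-coding symbol of the families Nduf (a, b, c, s or v), Sdh (a to d), Uqcr, Cox4 to Cox8 and Atp5. Of the 18432 genes in the table, 91 met this rule. They were 7 core and 31 accessory genes of complex I, 8 complex I assembly factors, 4 genes of complex II, 8 of complex III, 16 of complex IV and 17 of ATP synthase. The name rule thus took in 8 Ndufaf genes, which encode assembly factors and are no subunits, and left out Cyc1, the cytochrome c1 subunit of complex III. Ndufa4 and Ndufa4l2 were counted with complex I by their names.

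The series compared frontal cortex (CTX) and hippocampus (HIP) of Cyfip2 knock-in (KI) mice and their wild-type (WT) littermates at PWK (postnatal week) 1, 7, 14 and 28. Every mouse was on the C57BL/6N background and had no further treatment, and KI mice carried 1 germline copy of the R87C allele, an arginine-to-cysteine change in CYFIP2, a component of the WAVE complex that controls actin assembly. Each of the 16 groups held 4 libraries, 64 in all, and both regions were dissected from the same 4 mice of an age and genotype. The labels of the series do not say whether equal replicate numbers in both regions mark the same mouse.

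Oxidative phosphorylation takes electrons from NADH at complex I and from succinate at complex II, passes them through ubiquinone, complex III and cytochrome c to complex IV, where oxygen is reduced, and uses the proton gradient so built for ATP synthesis by ATP synthase. Complex II is encoded by nuclear genes alone, whereas the other complexes also hold subunits encoded by mitochondrial DNA (mtDNA). In the brain this pathway supplies most of the ATP used for ion pumping and synaptic transmission, and several complex IV subunits exist as a widely expressed form and a form known from heart, skeletal muscle, testis or lung.

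Values were gene-level read estimates that the study's authors had normalised between libraries, so that library totals lay between 29225576 and 32601227. The 91 genes made up 0.663% to 0.825% of a library, with a median of 0.731%, and the 13 mtDNA-encoded subunits made up 3.92% to 7.71%. Cyfip2 itself was lower in KI than in WT in CTX at PWK 28 (log2 fold change -0.44, adjusted p = 0.0058) and was not called in the other 7 comparisons (-0.33 to 0.11), and a point mutation leaves the transcript in place and so does not check the labels. Of the WT and KI libraries at PWK 14 and 28, KI replicate 1 of HIP at PWK 14 stood apart by its marker genes. Its 8 microglial markers summed to 31879, against 10783 to 15693 in the other KI libraries of HIP at PWK 14. Markers of ependymal and choroid plexus cells summed to 2448 to 125281 over the WT HIP libraries of PWK 14 and 28.

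Levels of different genes were compared per kilobase of exon. The length was the union of all annotated exons of a gene, so a gene with a shorter main transcript is understated. Cox8a, the widely expressed form of complex IV subunit VIII, had the highest mean over the 64 libraries at 9714 per kilobase. It was followed by Atp5a1 (ATP synthase subunit alpha) at 6559, Cox6a1 at 6528, Atp5b (subunit beta) at 6027, Cox4i1 at 5212 and Cox6b1 at 4988 per kilobase. The 5 lowest genes were Cox8b at 19.3, Cox4i2 at 25.4, Cox6b2 at 29.7, Cox7a1 at 38.7 and Ndufa4l2 at 38.9 per kilobase, 4 of them tissue-type isoforms of complex IV. Group medians per kilobase ran from 236 for the assembly factors and 968 for the complex I core to 1794 for complex III and 2000 for complex IV. Of the 91 genes, 85 had a mean value of at least 100 and 6 a lower one. The filter on low values kept all 91 in every comparison but those of PWK 1 alone, where 90 remained.

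The first question was whether the KI allele changed these genes. A gene was called where the limma test of log2(value + 1) gave a Benjamini-Hochberg adjusted p under 0.05 over all genes tested. No member was called in either region at PWK 1 or PWK 7, where 0.00546% and 0.00545% of all genes in CTX and 0.0109% and 0.0218% in HIP were called. At an unadjusted p under 0.05, 2 and 0 members passed in CTX and 2 and 3 in HIP. The share of all genes at this unadjusted threshold is not given here, so these counts have no background. Over the 8 comparisons there were 30 calls, and all 30 were higher in KI, whereas 5742 of the 10821 calls over all genes were higher. The 30 calls belonged to 22 genes, and the other 69 members were called in no comparison.

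At PWK 28 in CTX, 16 of 91 members were called, all 16 higher in KI, against a background of 22.2% of genes called and 12.2% called higher. The share of members called, 17.6%, was thus below that of all genes, while no member was called lower against a background of 10%. The 16 comprised 1 core and 5 accessory genes of complex I, 2 of complex II, 1 of complex III, 2 of complex IV and 5 of ATP synthase. None of the 8 assembly factors was called, and their median log2 fold change was -0.01. The median over all 91 members was 0.11, against -0.00339 over all genes tested, and 68 members had a positive difference. All 4 KI libraries lay on 1 side of all 4 WT libraries for 26 members that were higher and 1 that was lower, against 14.1% and 11.8% of all genes. The count fell to 8 without KI replicate 3, 9 without WT replicate 1 and 10 without WT replicate 4, and it was 38 (35 higher and 3 lower) in a fit of all 64 libraries, which shared 1 estimate of the spread. The share of all genes called in these other fits is not given here, and the 22.2% is no background for them.

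**Figure D1:**
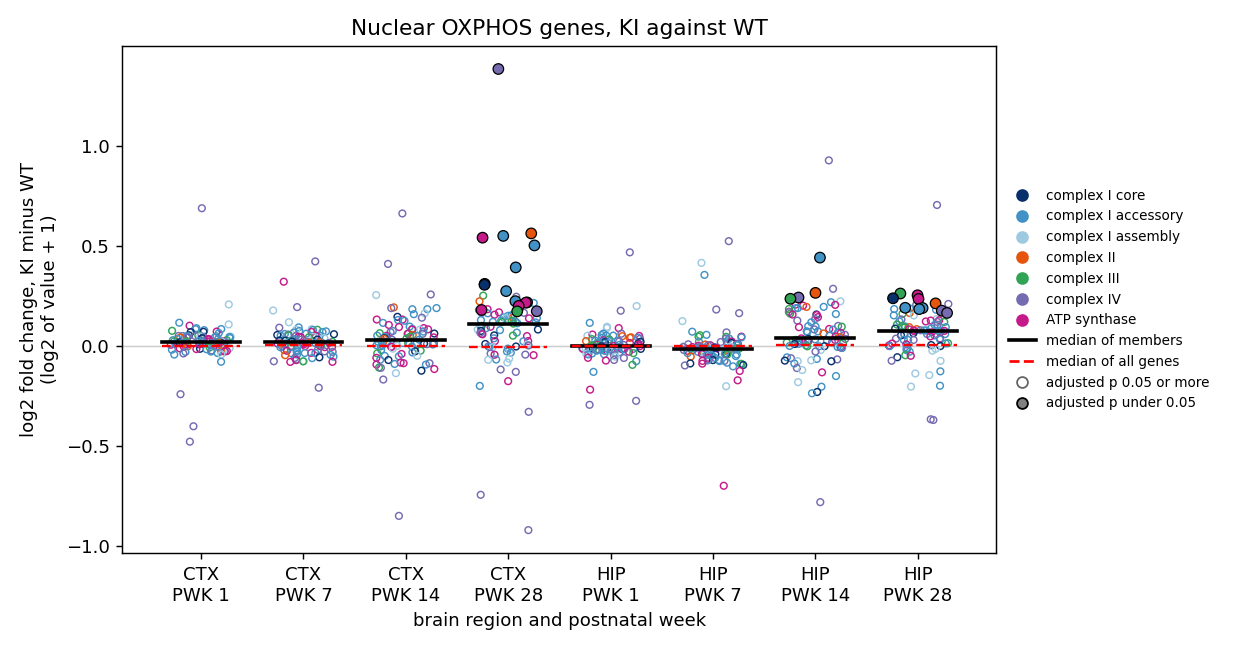
Log2 fold change (KI minus WT, on log2 of value + 1) of each OXPHOS gene in the 8 comparisons of region and postnatal week. Points are genes coloured by complex, filled points have an adjusted p under 0.05, and bars mark the median of the members (black) and of all genes (red, dashed). The filled points lie at PWK 28 in CTX (16), PWK 14 in HIP (4) and PWK 28 in HIP (10), each above 0.

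Several members were called in more than 1 comparison, and their upstream sequences are shown to place them on the genome. RefSeq promoter windows (build GRCm38.p6) were matched by symbol for 73 of the 91 members and for 19 of the 22 called genes, with Atp5a1, Atp5mpl and Sdhc unmatched. The 120 bases before the annotated start follow 5′ to 3′ for Ndufc2 (chr7:97399883-97400002, forward strand), called in 3 comparisons, for Sdhb (chr4:140961151-140961270, forward strand), Atp5g1 (chr11:96075632-96075751, reverse strand), Ndufv2 (chr17:66101560-66101679, reverse strand), Cox7a2 (chr9:79759854-79759973, reverse strand) and Uqcr11 (chr10:80406822-80406941, reverse strand), called in 2, and for Cox7a1 (chr7:30184051-30184170, forward strand), which had the largest difference. Capitals mark matches on either strand to GCATGCGC (the core of the NRF1 motif), CCGGAAG (ETS family, which includes GABP), AAGGTCA (ERR receptors), GGGCGG (GC box) and CCAAT.
Ndufc2: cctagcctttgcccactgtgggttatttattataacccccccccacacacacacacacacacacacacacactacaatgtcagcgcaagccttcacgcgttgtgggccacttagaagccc
Sdhb: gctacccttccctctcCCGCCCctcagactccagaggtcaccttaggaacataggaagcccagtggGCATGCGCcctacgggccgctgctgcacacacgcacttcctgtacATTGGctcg
Atp5g1: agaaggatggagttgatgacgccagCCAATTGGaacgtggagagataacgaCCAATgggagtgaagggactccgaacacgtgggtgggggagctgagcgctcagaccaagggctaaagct
Ndufv2: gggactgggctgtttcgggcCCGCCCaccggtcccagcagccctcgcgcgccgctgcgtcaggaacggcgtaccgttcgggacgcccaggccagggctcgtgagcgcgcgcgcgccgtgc
Cox7a2: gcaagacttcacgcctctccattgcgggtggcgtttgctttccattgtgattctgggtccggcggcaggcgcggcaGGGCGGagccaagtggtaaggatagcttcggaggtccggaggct
Uqcr11: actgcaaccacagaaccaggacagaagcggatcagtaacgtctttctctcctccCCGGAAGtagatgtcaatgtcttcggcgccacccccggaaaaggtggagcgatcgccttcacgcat
Cox7a1: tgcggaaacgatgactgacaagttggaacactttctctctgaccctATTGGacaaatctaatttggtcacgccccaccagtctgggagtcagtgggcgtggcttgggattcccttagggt

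These windows shared no single motif. In the full 250 bases upstream, GCATGCGC was found for 9 of 73 members (12.3%) and 2.56% of the 27018 genes with a window, and CCGGAAG for 14 (19.2%) and 7.83%. The full palindromic NRF1 motif, which contains GCATGCGC, was found for 5 members and 0.877% of genes. AAGGTCA was found for 5 members and 4.7% of genes, GGGCGG for 28 members and 35.4%, and CCAAT for 32 members and 37.5%. Of the 19 called genes with a window, 2 held GCATGCGC (Ndufa11 and Sdhb), 4 held CCGGAAG, none held AAGGTCA, and 13 held none of these 3 motifs. A match of letters describes the window and is not evidence of binding.

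Ndufc2, an accessory subunit in the membrane arm of complex I, was the only member called in 3 comparisons. At PWK 28 in CTX its values were 1834, 1388, 1835 and 1651 in the KI libraries (replicates 1 to 4) and 1086, 1153, 1226 and 1246 in the WT libraries (log2 fold change 0.50, SE 0.09, adjusted p = 0.00451). At PWK 14 in HIP they were 1482, 1361, 1451 and 1308 in KI and 1008, 1093, 1089 and 936 in WT (log2 fold change 0.44, SE 0.07, adjusted p = 0.00486). In both comparisons each KI library was above each WT library, and the call held in all 8 fits that left out 1 library. At PWK 28 in HIP the difference was smaller, with 1339, 1224, 1213 and 1229.9 in KI and 1044, 1057, 1119 and 1167 in WT (log2 fold change 0.19, SE 0.06, adjusted p = 0.0489). The groups again did not overlap, but this call was lost in each of the 8 fits without 1 library (adjusted p 0.0512 to 0.135). At PWK 14 in CTX, Ndufc2 was not called, with 1417, 1155, 1088 and 1131 in KI and 1088, 1091, 1064 and 957 in WT (log2 fold change 0.18, SE 0.09, adjusted p = 0.267). Ndufc2 overlaps Gm16053 on the same strand, so reads of both genes could be divided between them.

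Other complex I genes called in CTX at PWK 28 were Ndufv3, Ndufa10 and Ndufv2. Ndufv3, an accessory subunit of the NADH-binding module, had values of 1829, 1273, 1641 and 1653 in KI and 1123, 1158, 1067 and 989 in WT (log2 fold change 0.55, SE 0.11, adjusted p = 0.0050). Ndufa10, an accessory subunit of the membrane arm, had 4289, 3458, 4031 and 3596 in KI and 3033, 2842, 2944 and 2853 in WT (log2 fold change 0.39, SE 0.07, adjusted p = 0.00401). For both genes all KI libraries exceeded all WT libraries, and KI replicate 2 was the lowest of the KI libraries. Ndufv2, an iron-sulfur core subunit next to the NADH site, had 2774, 2619.6, 2983 and 2608 in KI and 2189, 2157, 2224 and 2308 in WT (log2 fold change 0.31, SE 0.06, adjusted p = 0.00552). It was also called in HIP at the same age, with 2515, 2379, 2714 and 2460.3 in KI and 2153, 2023, 2069.6 and 2289 in WT (log2 fold change 0.24, SE 0.06, adjusted p = 0.0166). Neither pair of groups overlapped, and the HIP call was lost without WT replicate 2 (adjusted p = 0.0522). The remaining complex I members called in CTX, Ndufa11 and Ndufb6, named after their values were seen, had log2 fold changes of 0.27 and 0.22. The catalytic core genes Ndufs1, Ndufv1 and Ndufs8 were not called in any genotype comparison, with log2 fold changes of 0.10, 0.05 and 0.08 in CTX at PWK 28.

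Complex II was the group with the highest median in CTX at PWK 28, 0.22 over its 4 genes. Sdhb, the iron-sulfur subunit of succinate dehydrogenase, had values of 4329.8, 2859.8, 4026 and 3478 in KI and 2374, 2488, 2427 and 2542 in WT (log2 fold change 0.56, SE 0.11, adjusted p = 0.00557). KI replicate 2 was again closest to WT, but it still exceeded the highest WT library. Sdha, the flavoprotein that oxidises succinate, had 11652, 10609.8, 12092 and 11256 in KI and 9414, 10118, 9996 and 9667 in WT (log2 fold change 0.22, SE 0.05, adjusted p = 0.0173). These groups were separate, and the call was lost in the fits without KI replicate 3 or WT replicate 4 (adjusted p up to 0.0519). At PWK 28 in HIP, Sdhb had 2836, 2498, 2851 and 2557 in KI and 2278, 2227, 2356 and 2396 in WT (log2 fold change 0.21, SE 0.06, adjusted p = 0.0253), with no overlap. At PWK 14 Sdhb was not called in either region, although KI libraries (2941, 2662, 2794 and 2517) were mostly above WT libraries (2359, 2524, 2282 and 2359.9) in HIP (log2 fold change 0.20, SE 0.06, adjusted p = 0.0655). The membrane anchor Sdhc was called only in HIP at PWK 14, where KI libraries had 2121, 1759.8, 1866 and 1707 and WT libraries 1532, 1627, 1514 and 1510.3 (log2 fold change 0.27, SE 0.07, adjusted p = 0.0407). That call was lost in 6 of the 8 fits without 1 library. The other anchor, Sdhd, was not called in any genotype comparison.

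In complex III, Uqcrc1, a core protein of the matrix arm, was called in CTX at PWK 28 (log2 fold change 0.17, SE 0.05, adjusted p = 0.0411), but in only 1 of the 8 fits without 1 library. The small subunit Uqcr11 was called in HIP at both late ages. At PWK 28 its values were 1932, 2009, 2049 and 2036 in KI and 1602, 1766, 1616 and 1713 in WT (log2 fold change 0.26, SE 0.05, adjusted p = 0.00535). Every fit without 1 library kept the call, and the correction for length and GC content did not. At PWK 14 they were 1674, 1749, 1993 and 1679.6 in KI and 1519.9, 1567, 1430.1 and 1497 in WT (log2 fold change 0.24, SE 0.07, adjusted p = 0.0483), where 1 of 8 such fits kept it. KI libraries were above WT libraries without overlap at both ages. Uqcrfs1, the Rieske iron-sulfur protein, and Uqcr10 were not called in any genotype comparison.

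Complex IV held the largest single difference. Cox7a1, the heart and muscle form of subunit VIIa, had values of 37.2, 25.8, 40.0 and 43.2 in KI and 14.4, 14.3, 12.5 and 11.6 in WT in CTX at PWK 28 (log2 fold change 1.38, SE 0.25, adjusted p = 0.00365). Each KI library exceeded each WT library, and the call held in all 8 fits without 1 library, but these are low values. Its level per kilobase in the WT group was 1.02% ± 0.106 (SD, n = 4) of that of Cox7a2, the widely expressed form, and 2.5% ± 0.521 in the KI group. In the remaining late comparisons Cox7a1 was not called, with KI values of 38.1, 23.2, 20.8 and 24.3 in CTX at PWK 14 (log2 fold change 0.66, SE 0.29, adjusted p = 0.229). In HIP the KI libraries had 67.5, 26.4, 43.5 and 26.3 at PWK 14 (log2 fold change 0.93, SE 0.35, adjusted p = 0.10) and 37.3, 42.6, 27.1 and 40.9 at PWK 28 (log2 fold change 0.70, SE 0.23, adjusted p = 0.0593). The corresponding WT values were 9.88, 17.7, 19.5 and 18.9 in CTX at PWK 14, 17.4, 19.5, 27.6 and 15.1 in HIP at PWK 14 and 26.2, 18.3, 19.8 and 24.5 in HIP at PWK 28. The KI mean was thus above the WT mean in all 4 late comparisons, with a call in 1 of them.

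Cox7a2 itself was called at PWK 28 in both regions. Its CTX values were 2555, 2575, 2644 and 2544 in KI and 2216, 2416, 2214 and 2309 in WT (log2 fold change 0.17, SE 0.05, adjusted p = 0.0379), and its HIP values 2251, 2247, 2294 and 2310.4 in KI and 2004, 2127, 1960.0 and 2032 in WT (log2 fold change 0.16, SE 0.04, adjusted p = 0.0281). The 4 KI libraries lay close together and above all WT libraries in both regions, but the call was kept in 2 of 8 fits without 1 library in CTX and 3 of 8 in HIP. Cox5a, a subunit on the matrix side, was called in HIP at PWK 14, with 2144, 2003, 2145 and 2056 in KI and 1636, 1867, 1779.7 and 1780.3 in WT (log2 fold change 0.24, SE 0.06, adjusted p = 0.024, kept in 4 of 8 fits). Cox6b1, on the intermembrane side, was called in HIP at PWK 28 (log2 fold change 0.18, SE 0.05, adjusted p = 0.0261, kept in 3 of 8 fits). Cox4i1, Cox6a1 and Cox8a, 3 of the most abundant members per kilobase, were not called in any genotype comparison, and Cox8a had a log2 fold change of -0.33 in CTX at PWK 28.

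ATP synthase had 5 calls in CTX at PWK 28 and 2 in HIP. Atp5g1, a gene for subunit c of the rotor ring, had values of 4069.8, 2981, 3697 and 3398 in KI and 2321, 2402, 2424 and 2515 in WT in CTX at PWK 28 (log2 fold change 0.54, SE 0.09, adjusted p = 0.00199). At PWK 28 in HIP they were 3368, 3067, 3191 and 2917 in KI and 2497, 2439.6, 2836 and 2901 in WT (log2 fold change 0.23, SE 0.07, adjusted p = 0.0379), where 3 of 8 fits without 1 library kept the call. The groups did not overlap in either region, and in CTX KI replicate 2 was the lowest KI library. The other subunit c genes, whose mature proteins are known to be identical, were not called in CTX at PWK 28, with log2 fold changes of -0.05 for Atp5g2 and 0.18 for Atp5g3. Atp5mpl, a small membrane protein of the complex, had 1682, 1404, 1552 and 1507 in KI and 1119.6, 1287, 1240.1 and 1307 in WT in CTX (log2 fold change 0.31, SE 0.08, adjusted p = 0.0158). Its HIP values were 1377, 1327, 1355 and 1294 in KI and 1099, 1145, 1038 and 1214 in WT (log2 fold change 0.25, SE 0.06, adjusted p = 0.0147), and both calls held in all fits without 1 library, while the HIP call was lost after correction for length and GC content. The subunit alpha gene Atp5a1 (0.20) and the central stalk gene Atp5c1 (0.18) were called in CTX with smaller log2 fold changes, which 3 and 1 of 8 such fits kept, while Atp5b, which encodes the catalytic subunit beta, was not called (0.06). The last of the 5, Atp5o, named after its values were seen, was called at 0.22.

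**Figure D2:**
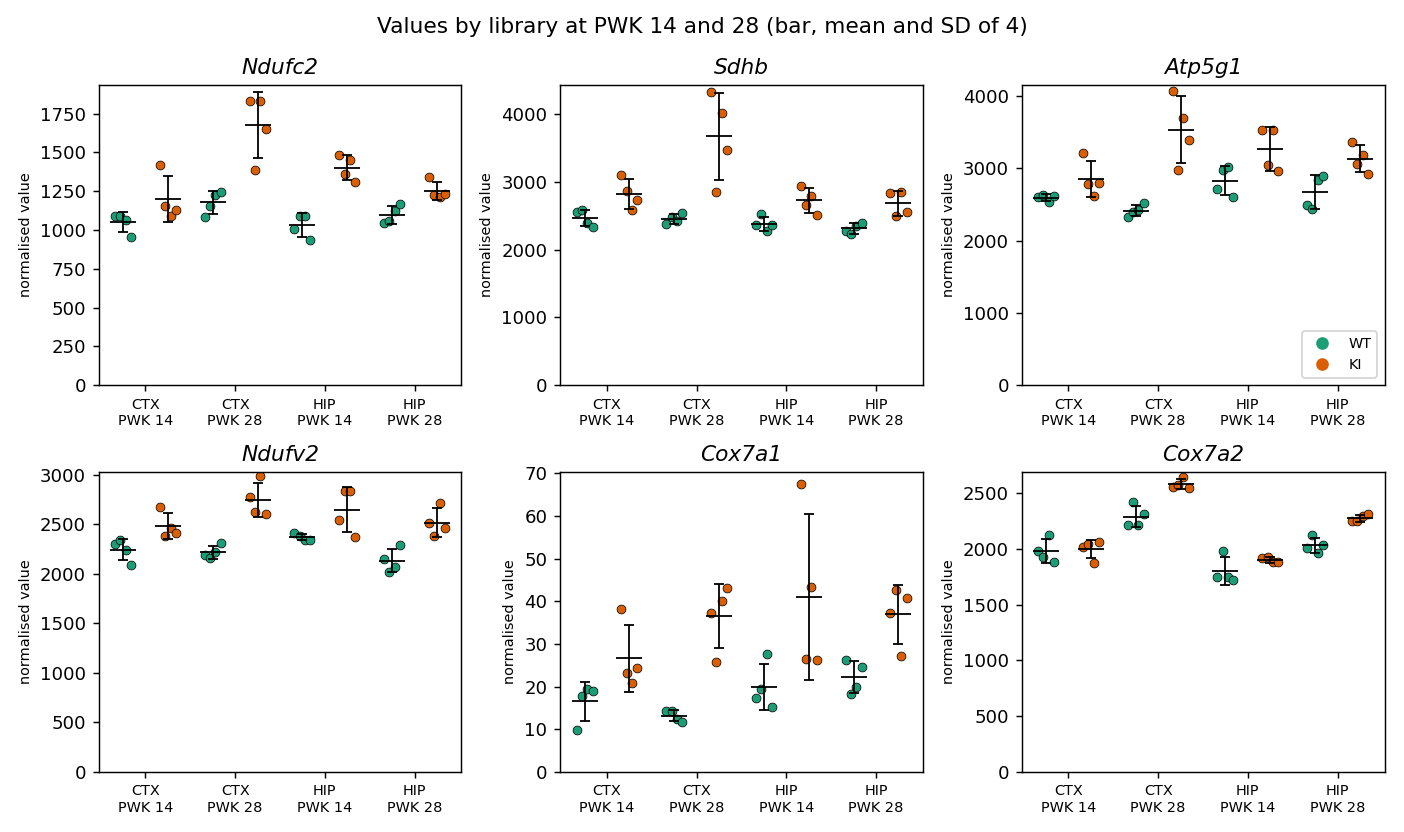
Normalised value (linear axis from 0) of 6 OXPHOS genes in each library at PWK 14 and 28, with WT in green, KI in orange, and the mean and SD of 4 libraries in black. KI libraries of Ndufc2 lie above WT libraries in CTX at PWK 28 and in HIP at both ages, and those of Cox7a1 are separated from WT in CTX at PWK 28, 25.8 to 43.2 against 11.6 to 14.4.

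In HIP at PWK 28, 10 of 91 members were called, all higher in KI, against a background of 15.8% of genes called and 8.92% called higher and 6.91% lower. The share of members called was 11%. The median of the members was 0.08, against 0.00374 over all genes, and 70 of 91 differences were positive. Libraries did not overlap for 22 members, each higher, against 11.8% of all genes higher and 9.77% lower. Besides the genes given above, the accessory complex I genes Ndufb7 (log2 fold change 0.19, SE 0.06, adjusted p = 0.045) and Ndufa12 (log2 fold change 0.18, SE 0.05, adjusted p = 0.0191) were called, and 1 and 6 of the 8 fits without 1 library kept these calls. The 6 genes Atp5g1, Atp5mpl, Cox7a2, Ndufc2, Ndufv2 and Sdhb were called at PWK 28 in both regions, which is 37.5% of the CTX calls and 60% of the HIP calls. The regions came from the same mice, so these are not separate animals. The HIP count fell to 3 without WT replicate 2, 4 without WT replicate 1 and 6 without KI replicate 1, KI replicate 3, WT replicate 3 or WT replicate 4. It was 2 (Atp5g1 and Ndufv2) after correction for length and GC content, 4 with total-sum scaling and 4 with a replicate block.

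In HIP at PWK 14, 4 members (Ndufc2, Sdhc, Cox5a and Uqcr11) were called, all higher in KI, against 15.6% of genes called and 7.64% called higher and 7.95% lower. The median over members was 0.04 and that over all genes 0.01. Libraries did not overlap for 9 members that were higher and 2 that were lower, against 11.6% and 12.2% of all genes. Only the Ndufc2 call held in every fit without 1 library: the count was 1 without KI replicate 3 or WT replicate 1, 3 or 4, 2 without WT replicate 2, and 6 without KI replicate 1, the library with high microglial markers. A fit of all 64 libraries gave 24 calls, 21 higher and 3 lower. In CTX at PWK 14 limma called no member against 5.18% of genes, while 11 members had an unadjusted p under 0.05 and the median of the members was 0.03. A fit of all 64 libraries called 4 members there, 3 higher and 1 lower. The shares of all genes at an unadjusted p and in the fits of all 64 libraries are not given here, so these counts have no background.

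Whether the KI difference itself changed with age or region was tested with interaction terms. No member was called for the change from PWK 14 to 28 in CTX or HIP, against 0% of all genes in each. No member was called for HIP against CTX at PWK 14 or at PWK 28 either, against 2.85% and 4.57% of genes. At an unadjusted p under 0.05, 13 and 3 members passed for age in CTX and HIP, and 6 and 9 for region at PWK 14 and 28. The share of all genes at this unadjusted threshold is not given here, so these counts cannot be read as an excess. The adjusted counts for age in CTX and for region at PWK 28 rested on KI replicate 2 of CTX at PWK 28: without it, 5 members (Ndufa11, Atp5g1, Sdhb, Ndufv3 and Ndufa10) were called for age in CTX, each with the larger KI difference at PWK 28. Without it, these 5 and Ndufc2 were also called for region at PWK 28, each with the smaller KI difference in HIP. Without KI replicate 1 of CTX at PWK 14, Atp5g1 alone was called for age. A fit of all 64 libraries called 7 members for age in CTX, 1 for region at PWK 14 and 4 for region at PWK 28. With equal replicate numbers of a genotype treated as 1 mouse, an alternative chosen after seeing the data, 2 members (Atp5g1 and Sdhb) were called for region at PWK 28, with the smaller KI difference in HIP, and 0 at PWK 14. The shares of all genes called in these alternative fits, also those without 1 library, are not given here. Their counts thus have no background and do not set these genes apart from others.

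Cell type markers moved in these comparisons and also in CTX at PWK 14, where no member was called. In bulk tissue, fewer cells of a type and less RNA per cell cannot be told apart. In CTX at PWK 28 the 8 markers of inhibitory neurons summed to 50679, 37118, 47928 and 45509.6 in KI replicates 1 to 4 and to 28135, 29605, 34029 and 34392 in WT. KI replicate 2 was the lowest KI library in this sum. Of the called genes with values given above, it was also lowest for Sdhb, Sdha, Atp5g1, Atp5mpl, Ndufv3, Ndufa10, Ndufc2 and Cox7a1. For Ndufv2 and Cox7a2 replicate 4 was the lowest. The slope of the library's values on GC content was also lowest in KI replicate 2 (-0.0085, against 0.023 to 0.072 in the other KI libraries). Of the 8 inhibitory markers, 4 were called higher and 1 lower, and of the 8 general neuronal markers 1 was called higher and 1 lower. At PWK 14 in CTX the inhibitory markers Sst, Gad2, Slc32a1 and Gad1 were already called higher and Vip lower. The blood markers and sums that follow are again those of CTX at PWK 28. All 5 blood markers (hemoglobin genes and Alas2) were called lower in KI, with sums of 3255 to 6609 against 8514 to 9786 in WT. Among astrocyte markers Gfap, an intermediate filament gene that rises in reactive astrocytes, was called higher in all 4 late comparisons, with log2 fold changes of 1.56 and 1.52 in CTX and 2.75 and 2.00 in HIP at PWK 14 and 28. The other astrocyte markers were mixed in CTX. Slc1a3 was called lower at PWK 14 (-0.36) and PWK 28 (-0.37), and Gja1 lower at PWK 28 (-0.30). Aldh1l1 was called higher at PWK 14 (0.34) and Fgfr3 higher at PWK 28 (0.24). In HIP at PWK 28, 5 of 8 astrocyte and 5 of 8 microglial markers were called higher. Astrocyte sums there were 199819 to 232967 in KI and 144572 to 154971 in WT, and microglial sums 13792 to 15968 and 11469.5 to 12328. At PWK 14 in HIP, 3 of 8 astrocyte markers were called higher, with sums of 216171 to 318743 in KI and 143892 to 170475 in WT. The microglial markers were not called there. No marker was at 0 in every library of a group at PWK 14 or 28, and the part of these cell types in the OXPHOS differences was not tested.

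Genes that work with the nuclear subunits were counted in the same way, and their counts stand beside the 22.2% of all genes called in CTX at PWK 28, 15.8% in HIP at PWK 28 and 15.6% in HIP at PWK 14. Of the 13 mtDNA-encoded subunits, 10 were called higher in KI in HIP at PWK 28, with a median log2 fold change of 0.30. The mtDNA share of these libraries was 6.75% to 7.67% in KI and 5.93% to 6.18% in WT, with no overlap. In CTX at PWK 28, 2 were called higher (mt-Co2 and mt-Atp6), with a median of 0.21. At PWK 14 in HIP, 1 was called lower (mt-Nd3). Of the 16 electron carriers and carriers of ADP and phosphate, 5 were called higher in CTX at PWK 28, among them the ADP/ATP carriers Slc25a4 and Slc25a5 and the ATPase inhibitor Atpif1, 3 in HIP at PWK 28 and 1 in HIP at PWK 14. Of the 13 tricarboxylic acid cycle genes, 5, 4 and 2 were called higher in these comparisons and none lower. Ogdh, a subunit of 2-oxoglutarate dehydrogenase, was called in all 3.

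Of the 15 glycolytic genes measured, 9 were called higher and 1 lower (Ldhb) in CTX at PWK 28, with a median log2 fold change of 0.40, against 0.11 for the OXPHOS genes. In HIP, 10 were called higher at PWK 28, and 5 higher and 1 lower at PWK 14. Of the 15 regulators of mitochondrial biogenesis, none was called higher in the 4 late comparisons, 2 were called lower in CTX at PWK 28 (Ppargc1b and Gabpa) and 1 in HIP at PWK 14 (Tfb2m). Of the 35 assembly factors outside the name rule, 5 were called higher and 2 lower in CTX at PWK 28, which is 20% against 22.2% of all genes, with a median of 0.01. Of the 78 mitochondrial ribosomal protein genes, 5 were called higher and 1 lower there, and of the 81 cytosolic ribosomal protein genes none was higher and 22 were lower (median -0.16).

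The members had short exon lengths, counted as the union of all annotated exons of a gene. Their median exon length was 1587 bases, against 3952 over all genes, 80 of the 91 were shorter than that median, and their median GC content was 51.3% against 49.7%. Slopes of library values on GC content or length went with genotype at PWK 28. In CTX the GC slopes were -0.0085 to 0.072 in KI and -0.060 to -0.018 in WT. In HIP the length slopes were -0.020 to 0.0050 in KI and 0.0064 to 0.0105 in WT. The length slopes in CTX and the GC slopes in HIP overlapped. After each library was corrected for gene length and GC content, 15 members were called in CTX at PWK 28 (14 higher and 1 lower, Cox8a), 12 of them among the original 16. For HIP at PWK 28, 2 were called after correction, Atp5g1 and Ndufv2, and the median fell from 0.0753 to 0.00309 while that of all genes fell from 0.00374 to -0.0343. For HIP at PWK 14, correction left 1 member called higher (Ndufc2) and gave 3 called lower, Ndufs7, Ndufa5 and Ndufa7, which were chosen after their values were seen. The corrected median turned negative in CTX at PWK 14 (-0.0148) and in HIP at PWK 14 (-0.0396), and the all-gene medians were -0.0264 and -0.0664. With every library scaled to the same total instead, 12 members (11 higher and 1 lower) were called in CTX at PWK 28, 3 in HIP at PWK 14 and 4 in HIP at PWK 28.

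**Figure D3:**
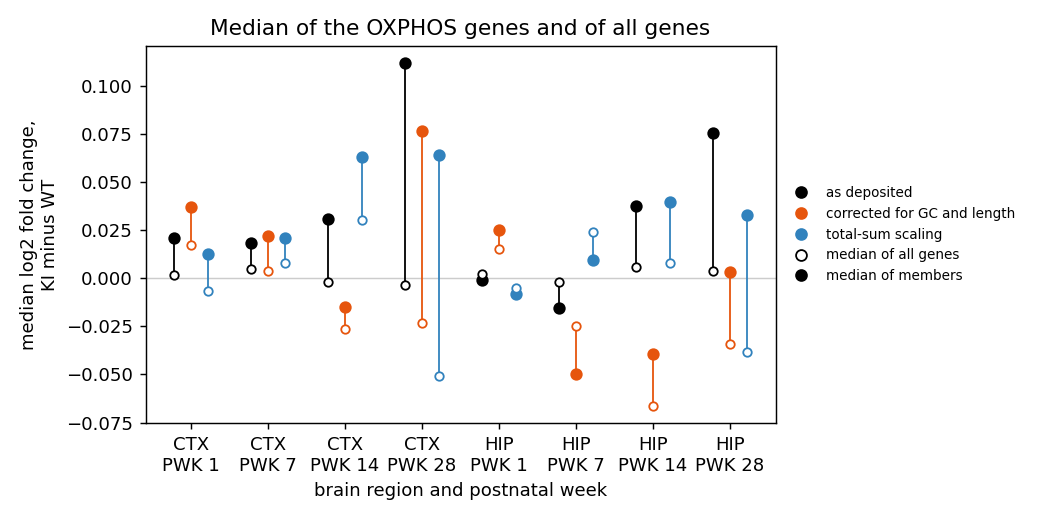
Median log2 fold change (KI minus WT) of the OXPHOS genes (filled) and of all genes (open) in the 8 comparisons, with values as deposited (black), after correction for GC content and gene length (orange) and after total-sum scaling (blue). In CTX at PWK 28 the filled points lie at 0.112, 0.0766 and 0.0639, each above the open point of the same colour.

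Of the 16 genes called in CTX at PWK 28, 10 were called under each of the 6 other ways of processing, and 8 of these (Atp5g1, Atp5mpl, Cox7a1, Ndufa10, Ndufc2, Ndufv2, Ndufv3 and Sdhb) also in each fit without 1 library. In HIP this was true of Ndufc2 at PWK 14 and of no gene at PWK 28.

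The WT groups showed how the same genes changed during postnatal life without the KI allele. Age cannot be told apart from any batch that the labels do not give. Between PWK 1 and PWK 7, 50 members were called in CTX (29 higher and 21 lower at PWK 7) and 49 in HIP (33 higher and 16 lower), against 65.5% and 62.2% of all genes. By direction, 33.2% of all genes were higher and 32.3% lower in CTX, and 31.8% and 30.4% in HIP. The members' shares, 54.9% and 53.8%, were below the background, and the medians of the members were 0.02 and 0.08. The 36 members called in both regions, 72% of the CTX calls and 73.5% of the HIP calls, changed in the same direction, 24 higher and 12 lower. The split depended on scaling: correction for length and GC gave 16 higher and 39 lower in CTX and 23 and 22 in HIP, and total-sum scaling gave 29 and 21 in CTX and 25 and 26 in HIP.

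The complex I core rose while most called ATP synthase genes fell, and under total-sum scaling and the correction the medians of both groups kept their signs in both regions. Of the 7 core genes, 6 were higher at PWK 7 in CTX (median 0.25) and 7 in HIP (median 0.30), and none was lower. Ndufs7, a core subunit near the quinone site, had values of 979, 838, 933 and 894 at PWK 1 and 1448, 1434, 1227 and 1256 at PWK 7 in HIP (log2 fold change 0.56, SE 0.07, adjusted p = 1.15e-06). All libraries of PWK 7 were above those of PWK 1. Ndufs1, Ndufv1 and Ndufs8 rose in both regions, with log2 fold changes from 0.12 (Ndufs1) to 0.38 (Ndufs8) in CTX. The CTX call of Ndufs1 was kept in 2 of the 8 fits without 1 library. The correction gave 4 core genes higher and 1 lower in CTX. Of the 17 ATP synthase genes, 3 were higher and 7 lower in CTX (median -0.15) and 2 higher and 4 lower in HIP (median -0.04). Atp5g1 fell in CTX from 3552, 3481, 3821 and 3604 to 2567, 2661, 2800.4 and 2645 (log2 fold change -0.44, SE 0.04, adjusted p = 3.06e-08), without overlap, and was not called in HIP (log2 fold change -0.14, SE 0.07, adjusted p = 0.0852). Atp5c1 and Atp5g3 were lower in both regions, and Atp5a1 in CTX (-0.28).

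Genes of the same complex moved in opposite directions. Over all members, higher differences went with higher GC content, with a Spearman rho of 0.36 in CTX and 0.37 in HIP as a description. Over all genes the rho was 0.011 and -0.00056. After correction for length and GC content, Sdha, Sdhd, Cox8a, Cox4i1, Cox5a and Cox6b1 were still called in both regions. In complex II, Sdha rose from 5998, 5872, 6641 and 6075 to 8981, 9037, 9209 and 9669.5 in CTX (log2 fold change 0.59, SE 0.05, adjusted p = 3.25e-09) and by 0.63 on the log2 scale in HIP. Sdhd fell from 2349.7, 2434, 2402 and 2439 to 1930.4, 1884, 1835 and 1925 in CTX (log2 fold change -0.35, SE 0.04, adjusted p = 1.42e-06), and its log2 fold change in HIP was -0.33. Neither gene had overlapping ages, and the other complex II genes, Sdhb and Sdhc, were not called. In complex IV, Cox8a rose from 4540.2, 4152, 5037 and 4783 to 7785, 6273, 7126 and 7649 in CTX (log2 fold change 0.64, SE 0.10, adjusted p = 1.73e-05) and by 0.59 in HIP, and Cox4i1 rose by 0.39 and 0.34. Cox5a fell from 2246, 2291, 2465 and 2557 to 1958, 1666, 1815 and 1960.3 in CTX (log2 fold change -0.37, SE 0.08, adjusted p = 0.000557), and its log2 fold change in HIP was -0.30. Of the complex IV genes, Cox6b1 was also lower at PWK 7, at -0.17 in CTX and -0.19 in HIP.

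Ndufa4l2, a paralogue of Ndufa4 known to be induced by low oxygen, had values of 69.8, 67.2, 59.8 and 84.9 at PWK 1 and 27.8, 34.5, 25.5 and 33.5 at PWK 7 in HIP (log2 fold change -1.19, SE 0.17, adjusted p = 6.93e-06). The ages did not overlap. In CTX they were 56, 43, 70.6 and 58.8 and 38.6, 40.7, 45.9 and 41.1, and the gene was not called (log2 fold change -0.43, SE 0.24, adjusted p = 0.119). Among the assembly factors, Ndufaf6 (-0.60) and Ndufaf5 (-0.48) were lower at PWK 7 in CTX, and Ndufaf2 in HIP (-0.35).

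**Figure D4:**
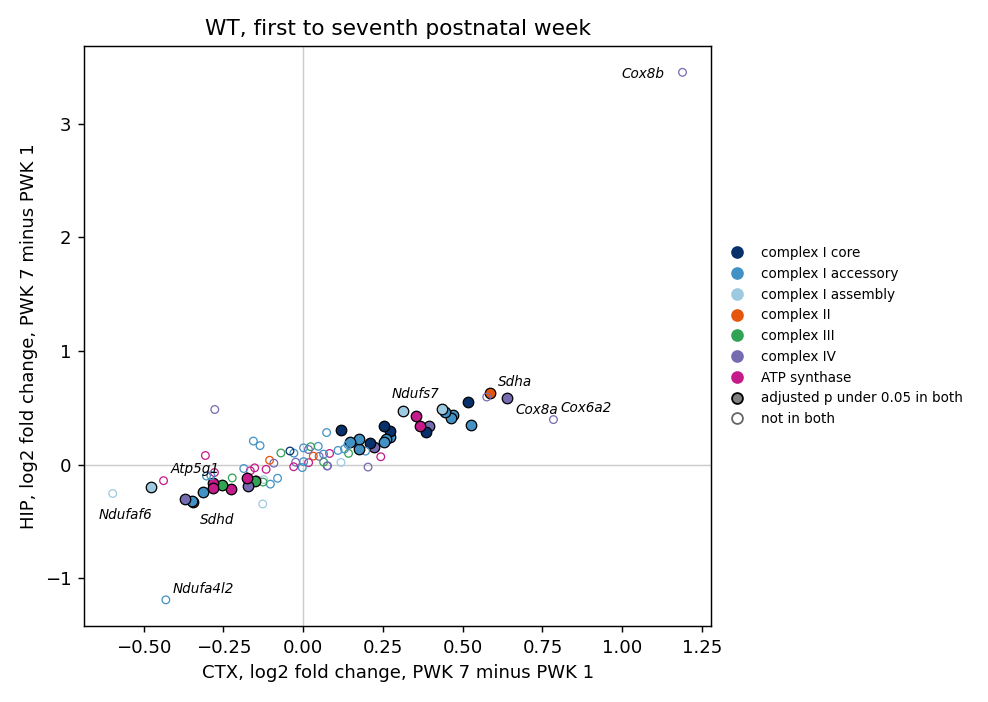
Log2 fold change from PWK 1 to PWK 7 in WT for each OXPHOS gene, CTX on the horizontal and HIP on the vertical axis, coloured by complex. Filled points have an adjusted p under 0.05 in both regions, and these 36 genes lie in the upper right (24) or lower left (12) quadrant.

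Later WT changes were fewer. Between PWK 7 and PWK 14, 1 member was called in CTX against 5.31% of genes (3.17% higher and 2.14% lower), Ndufab1 (mitochondrial acyl carrier protein), with values of 1429, 1234, 1435 and 1520.2 at PWK 7 and 1830.3, 1830.2, 1774 and 1747 at PWK 14 (log2 fold change 0.36, SE 0.08, adjusted p = 0.0138). This call was lost without replicate 2 of PWK 7, while replicate 4 of PWK 7 left out gave 2 calls, and total-sum scaling gave 1 higher and 1 lower. In HIP 4 members (Atp5e, Ndufc1, Atp5f1 and Uqcrfs1) were called, all lower at PWK 14, with log2 fold changes of -0.31 to -0.14, against 5.57% of genes (3.05% higher and 2.51% lower). This count was 1 without replicate 1, 3 or 4 of PWK 14 or replicate 2 or 4 of PWK 7, and 7 without replicate 2 of PWK 14. Between PWK 14 and PWK 28, 24 members were called in CTX (20 higher and 4 lower) and 28 in HIP (24 higher and 4 lower), against 15.3% and 11.6% of all genes and 6.79% and 4.58% called higher, with 8.53% and 6.97% lower. The shares of members called, 26.4% and 30.8%, were above the background in both regions, and 12 genes were called in both, each in the same direction. Over all genes, differences of this step were lower at higher GC content, with a Spearman rho of -0.26 in CTX and -0.22 in HIP as a description. Among the members the rho was -0.25 and -4.8e-05. The CTX count fell to 14 and 15 without replicates 3 and 4 of PWK 14, and the HIP count to 17 without replicate 1 or 4 of PWK 14 and to 18 without replicate 4 of PWK 28. Total-sum scaling gave 31 higher and 2 lower in CTX.

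The members with the largest rises from PWK 14 to PWK 28 included Atp5l (subunit g of ATP synthase; 0.40 in CTX and 0.50 in HIP), Uqcrb (0.34 and 0.25) and the complex III hinge protein gene Uqcrh (0.34 and 0.30). Ndufb3 rose in CTX (0.32), and Atp5k (0.52), Uqcr10 (0.47) and Ndufa1 (0.47) in HIP. Atp5l, Atp5k and Uqcrh have annotated pseudogenes that could share reads with them. Of the members that fell, Uqcrq was called in CTX (-0.24) and HIP (-0.18), Sdhc (-0.31) and Cox8a (-0.31) in CTX, and Ndufb2 (-0.37) and Ndufv2 (-0.15) in HIP. Ndufab1 fell in both regions, to 1145, 1303, 1463 and 1201 in CTX (log2 fold change -0.50, SE 0.08, adjusted p = 0.000599). In HIP it had 1754, 1731, 1758 and 1763 at PWK 14 and 1205, 1351, 1224 and 1386 at PWK 28 (log2 fold change -0.44, SE 0.05, adjusted p = 0.000126). The PWK 28 libraries were the lowest in both regions, and Ndufab1 also has a named pseudogene. Within the HIP comparison, lower differences went with longer exons among the members, with a Spearman rho of -0.42 over 91 genes as a description. Correction for length and GC kept 14 of the 24 CTX calls and 19 of the 28 HIP calls.

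The regions were compared within WT, with libraries of the same mice treated as separate samples. Called members numbered 8 at PWK 1 (4 higher in HIP and 4 lower), 22 at PWK 7 (18 and 4), 5 at PWK 14 (4 and 1) and 19 at PWK 28 (16 and 3). All genes were called at 34.7%, 40.8%, 34.6% and 37.8%, with 16.1% and 18.6% higher and lower in HIP at PWK 1, 20.4% and 20.4% at PWK 7, 17% and 17.6% at PWK 14 and 18.8% and 19% at PWK 28. The members' shares called were 8.89%, 24.2%, 5.49% and 20.9%. The PWK 1 count fell to 3 without HIP replicate 3, 4 without CTX replicate 4 and 5 without CTX replicate 2, and the PWK 14 count to 3 without CTX replicate 3. Directions rested on scaling. At PWK 1, total-sum scaling gave 21 calls, all higher in HIP, and correction for length and GC gave 21, all lower. At PWK 7, 14 and 28 total-sum scaling gave 30 higher and 3 lower, 9 and 1, and 26 and 3, whereas the correction gave 12 and 8, 1 and 3, and 6 and 7.

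Complex IV isoforms had the largest regional differences. Cox6a2, the heart and muscle form of subunit VIa, had WT values in CTX of 83.3, 76.1, 71.5 and 97.9 at PWK 7, 88.3, 79.8, 79.8 and 106 at PWK 14 and 72.5, 97.2, 76.5 and 82 at PWK 28. In HIP it had 36.4, 51.3, 48.8 and 41.3 at PWK 7, 34.9, 54.1, 60.8 and 42.1 at PWK 14 and 50.9, 50.1, 47.2 and 53.3 at PWK 28. Every CTX library was above every HIP library at each of these ages, and the HIP minus CTX log2 differences were -0.87 (adjusted p = 0.00169), -0.89 (0.00378) and -0.69 (0.00324). At PWK 1 the regions overlapped, with 29.1, 35.4, 68.3 and 68.7 in CTX and 30.9, 25.8, 55.6 and 27.3 in HIP, and the gene was not called. Its level per kilobase was 1.81% ± 0.106 (SD, n = 4) of that of Cox6a1 in CTX at PWK 28 and 1.13% ± 0.111 in HIP.

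Cox6b2, a form known from testis, and Cox8b, the heart and muscle form of subunit VIII, were higher in HIP. Cox6b2 had values of 51.5, 42.2, 77.2 and 80.2 in HIP and 33.8, 43.8, 24.4 and 11.6 in CTX at PWK 28 (log2 fold change 1.21, SE 0.37, adjusted p = 0.0218), where the regions overlapped. At PWK 7 it had 50.4, 31, 30.9 and 53.9 and 14.7, 17.2, 12.8 and 17.8 (log2 fold change 1.32, SE 0.26, adjusted p = 0.00157), and at PWK 14 32.3, 33.6, 54.6 and 29.1 and 19, 13.3, 13.4 and 14.1 (log2 fold change 1.24, SE 0.26, adjusted p = 0.00257). HIP was above CTX without overlap at PWK 7 and 14.

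Cox8b was at most 8.11 in WT CTX libraries and varied within the HIP groups. Its WT HIP values were 0, 1.54, 0 and 0.866 at PWK 1, 26.2, 14.2, 4.08 and 31.3 at PWK 7, 5.93, 3.52, 31.1 and 4.26 at PWK 14 and 18.7, 6.12, 36.5 and 34.2 at PWK 28. At PWK 1 it did not pass the filter on low values. The WT CTX values were 1.69, 0, 0 and 0 at PWK 1, 2.43, 3.78, 3.43 and 0 at PWK 7, 0.874, 3.13, 2.02 and 2.17 at PWK 14 and 4.02, 8.11, 1.12 and 1.1 at PWK 28. The regions met only at PWK 28 among the later ages. It was called higher in HIP at PWK 7 (log2 fold change 2.47, SE 0.67, adjusted p = 0.0114) and PWK 28 (log2 fold change 2.46, SE 0.62, adjusted p = 0.00835). Cox8b was among the 33 members called higher at PWK 7 than at PWK 1 in HIP, but it passed the filter there through the later ages only, so no fold is given.

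At PWK 7, 14 and 28 the WT HIP libraries with high Cox8b were also those with high ependymal and choroid plexus markers. Summed over 8 markers, these libraries had 90406, 35574, 1978 and 97627 at PWK 7, 3193, 18982, 105492 and 2448 at PWK 14 and 54741, 37271, 122364 and 125281 at PWK 28 (replicates 1 to 4). Replicate 3 at PWK 14 was the highest of its group in this sum, in Cox8b (31.1) and in Cox6b2 (54.6). In CTX at PWK 28, WT replicate 2 had the highest sum (21632) and the highest Cox8b of its group. Among the HIP libraries of PWK 28, replicates 3 and 4 were highest and replicate 2 lowest in all 3 measures. At PWK 1 the sums were 11431 to 40271 in HIP while Cox8b was at most 1.54. Cox6a2 did not follow the order of the sums at PWK 28. The part of choroid plexus tissue in the regional differences of Cox8b and Cox6b2 was not tested.

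**Figure D5:**
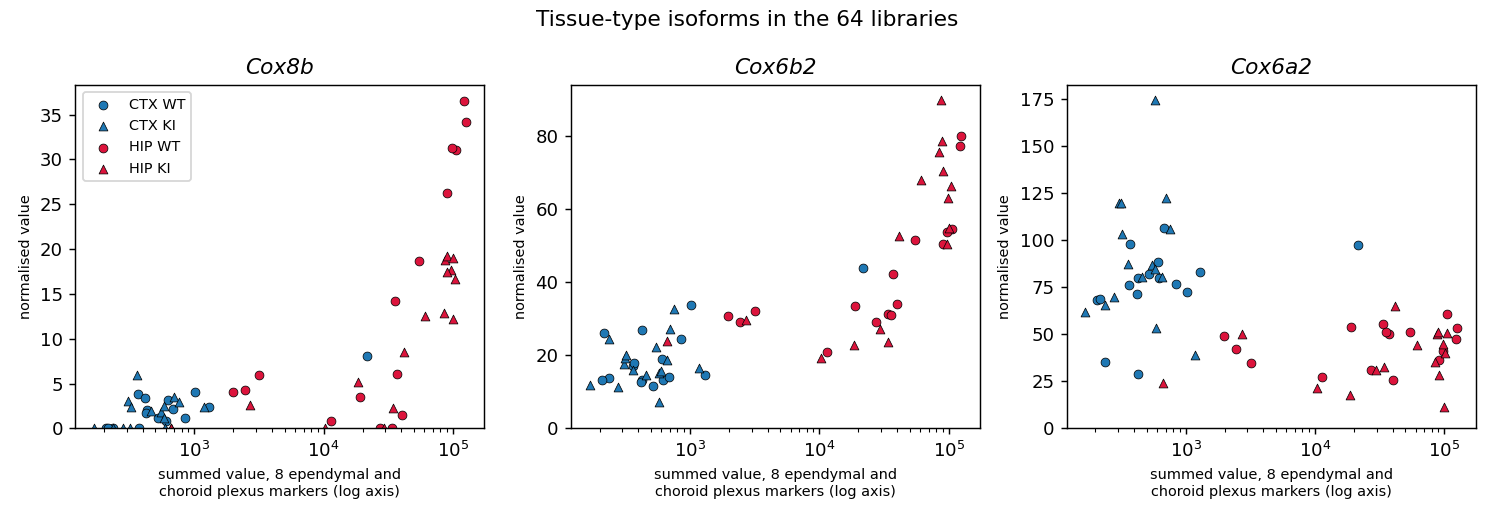
Normalised value of Cox8b, Cox6b2 and Cox6a2 (linear axis from 0) against the summed value of 8 ependymal and choroid plexus markers (log axis) in the 64 libraries, CTX in blue and HIP in red, WT as circles and KI as triangles. For Cox8b and Cox6b2 the highest values belong to HIP libraries at the right of the axis, while for Cox6a2 CTX libraries are mostly above HIP libraries.

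Other regional differences were smaller. Ndufa12, an accessory complex I gene, was called higher in HIP at each of the 4 ages, with log2 differences of 0.20, 0.17, 0.17 and 0.18, those of PWK 7 and 28 chosen after their values were seen. After correction for length and GC content only the PWK 7 call was kept, and the PWK 14 call was also lost in 5 of 8 fits without 1 library and with the replicate block (adjusted p = 0.0562). Cox7a2 was lower in HIP at PWK 7 (-0.17) and PWK 28 (-0.17), where Cox7a1 was higher (log2 fold change 0.70, SE 0.24, adjusted p = 0.0359, kept in 3 of 8 fits without 1 library). Ndufab1 (0.41) and Ndufb2 (0.37) were higher in HIP at PWK 7, and Sdhc (0.33) and Ndufa1 (0.33) at PWK 28.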

How the data were processed

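RNA of frontal cortex and hippocampus was sequenced in 64 libraries, 4 for each genotype, region and age, grouped by the labels of the series. The authors quantified reads with Salmon, summarised them per gene and deposited 1 table of values normalised between libraries with DESeq2, used here as a signal on a linear scale (per the labels, build GRCm38, Salmon 0.11.2, R 3.6.0 and DESeq2 1.19.11, while the study's methods name other versions). Raw read counts were not used here, so the sequencing depth behind a value is unknown and no counting interval was given. The labels name an mRNA kit and the study's methods a total RNA kit. Identifiers of 18420 genes were matched to the GENCODE annotation of the same build and 12 were not. No deposited sample column was left unused (0). The gene matched to a second Atp5o locus and Cox7b2 and Cox8c were not analysed here.

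Values were transformed to log2(value + 1), which understates changes of low genes, and genes with a mean of at least 1 in the fitted libraries were tested with limma 3.58.1 in R 4.3.3 (moderated test with a mean-variance trend, two-sided, Benjamini-Hochberg adjustment over all genes, adjusted p under 0.05). Genotype comparisons used the 8 libraries of a region and age, WT age comparisons the 16 WT libraries of a region, WT region comparisons the 8 WT libraries of an age, and interactions 16 libraries. The written plan listed libraries of both regions of 1 age for the WT HIP age comparisons, which cannot give an age difference, so the 16 WT HIP libraries were used as in CTX. Alternatives were a pseudocount of 0.5, a minimum mean of 10, total-sum scaling, a correction of each library for GC content and exon length by splines with 4 degrees of freedom, a fit of all 64 libraries, a replicate block and leaving out each library in turn.

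The members and the gene and marker lists were chosen with earlier results of these data known. Members named were a fixed list of 32 genes, up to 8 called genes a direction with the largest change in each genotype comparison and up to 4 a direction in each WT comparison. The values of 1 gene on that list are not reported here. Glycolytic gene counts left out Aldoa. Mice were separate animals within a group. Promoter windows came from RefSeq (GRCm38.p6).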

Additional observations from a re-analysis of the deposited data

Results flagged for a closer look

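Groups of 4 libraries were screened for a single library far from the other 3 (Dixon's ratio above its 95% critical value), in 164 combinations of a gene or share and a group. Of these, 7 stood out, and chance gives about 1 in 20.

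Ndufc2 was 1339 in KI replicate 1 of HIP at PWK 28, where the other KI libraries had 1213 to 1229.9. Cox8a was 4052 in WT replicate 2 of HIP at PWK 1, below the 4531 to 4619 of the other WT libraries. The OXPHOS genes made up 0.768% of WT replicate 1 of HIP at PWK 28, below the 0.787% to 0.791% of its group.

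The other 4 were tissue-type isoforms of complex IV at low values. Cox8b was 31.1 in WT replicate 3 of HIP at PWK 14 (others 3.52 to 5.93) and 1.69 in WT replicate 1 of CTX at PWK 1 (others listed at 0). Cox6a2 was 55.6 in WT replicate 3 of HIP at PWK 1 (others 25.8 to 30.9). Cox6b2 was 19.0 in WT replicate 1 of CTX at PWK 14 (others 13.3 to 14.1).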

How the results depend on the processing

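Of the 22 counts of called members, settings that moved a count by over 1.5 times were these. A fit of all 64 libraries gave 4 calls for KI against WT in CTX at PWK 14 (from 0), 38 in CTX at PWK 28 (from 16) and 24 in HIP at PWK 14 (from 4). It gave 2 for WT PWK 14 against 7 in CTX (from 1) and 2 in HIP (from 4), 11 for HIP against CTX at PWK 14 (from 5), 7 for genotype by age in CTX, and 1 and 4 for genotype by region at PWK 14 and 28 (each from 0). The correction for GC content and length gave 2 for the KI comparison in HIP at PWK 28 (from 10), 1 for WT PWK 14 against 7 in HIP (from 4) and 21 for HIP against CTX at PWK 1 (from 8). Total-sum scaling gave 4 for the KI comparison in HIP at PWK 28, 2 for WT PWK 14 against 7 in CTX, and 21, 10 and 29 (from 8, 5 and 19) for HIP against CTX at PWK 1, 14 and 28. A minimum mean of 10 gave 2 for WT PWK 14 against 7 in CTX. The share of all genes called under these settings or without 1 library is not given here. The cause of these shifts was not tested. No gene named for a call turned direction in that comparison under any of these settings. Genes named as not called were outside this check.

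Libraries with the same replicate number were checked for pairing. Their deviations from the group means had a correlation over 0.1 in 17 of 32 pairs of regions and 10 of 32 pairs of genotypes. All 4 pairs of regions passed in WT at PWK 1 (0.102 to 0.256) and in KI at PWK 28 (0.239 to 0.443), where equal numbers may mark 1 mouse, and not in the other groups, so the numbers were not taken as pairs throughout. For HIP against CTX in WT at PWK 1 the block gave 10 calls (from 8). With a replicate block within each genotype, added after seeing the data, genotype by region gave 2 calls at PWK 28 and 0 at PWK 14. With the replicate block, the KI comparison gave 10 calls in CTX at PWK 28, 1 in HIP at PWK 14 and 4 in HIP at PWK 28, and WT PWK 14 against 7 in HIP gave 2. The planned replicate block moved no other count of calls by over 1.5 times.

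Leaving out 1 library gave 8 to 20 calls for KI against WT in CTX at PWK 28, 1 to 6 in HIP at PWK 14 and 3 to 10 in HIP at PWK 28. For WT ages the ranges were 44 to 50, 0 to 2 and 14 to 24 in CTX and 46 to 50, 1 to 7 and 17 to 32 in HIP for the first, middle and last step. For HIP against CTX they were 3 to 8, 19 to 25, 3 to 7 and 14 to 26 at PWK 1, 7, 14 and 28. The interactions gave 0 to 5 for age in CTX, 0 to 6 for region at PWK 28, and 0 to 0 for age in HIP and region at PWK 14. The median of the members moved by more than the spread between libraries in 4 cases, to -0.01 in CTX and -0.04 in HIP at PWK 14 after correction, and in HIP at PWK 28 to 0.00309 after correction and 0.03 with total-sum scaling. With 4 libraries a group and no read depth in the table, small differences of the low isoforms could not be resolved.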
